A study of Homo sapiens with 12 samples.

Results

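The 10 genes described here encode ligands, 1 receptor, SMAD proteins and inhibitors of bone morphogenetic protein (BMP) signalling, namely BMP2, BMP4, BMP7, BMPR1A, SMAD6, SMAD7, SMAD9, BAMBI, NOG and GREM1. They were chosen by name, as the rows carrying these symbols, with earlier results of these data known. They are 10 of 58575 genes in the count table and of 60617 genes in the TPM table. The libraries were poly(A)-selected RNA-Seq of 201B7, an established human induced pluripotent stem cell (iPSC) line, with 3 libraries in each of 4 culture conditions and 16441148 to 21871503 reads counted on genes per library. All cells came from the same line, were kept on laminin-coated dishes with a ROCK inhibitor before the experiment, and were harvested on day 5. Cond 1 (control) stayed in the standard StemFit maintenance medium. Cond 2 (low nutrient) received StemFit that had been inactivated by heating to 56 °C for 30 min. Cond 3 (differentiation) received DMEM with 10% FBS, MEM NEAA and GlutaMax. The paper describes the heated medium as given from day 2 and the stimulation by FBS as on day 4. Between Cond 2 and Cond 3, the medium and the length of exposure to it therefore cannot be told apart. Cond 4 (physical stimulus) was pipetted 20 times when passaged and was then grown as Cond 1. Each condition took 1 well of a plate and the arrangement was run in triplicate, so the p-values below measure the spread between these samples of a single line, which may be technical.

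BMP ligands are secreted dimers that assemble type I and type II receptor kinases, which phosphorylate SMAD1, SMAD5 and SMAD9. These join SMAD4, enter the nucleus and switch on target genes such as the ID family, and the pathway also switches on its own brakes, among them SMAD6, SMAD7, BAMBI and NOG. In human pluripotent cells BMP signalling is known to drive exit toward surface ectoderm, mesoderm and extraembryonic fates, and its inhibition favours neural fates.

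The upstream sequence of SMAD6 and BAMBI is shown because both are classical feedback genes of the pathway and carry, in the stretch before the transcription start, words that SMAD proteins are known to bind. The bases come from the RefSeq promoter windows of GRCh38.p14, run 5′ to 3′ on the strand of the gene, and show in capitals each match to the words GGAGCC or GGCGCC or to the palindrome GTCTAGAC, searched on both strands.
SMAD6, chr15:66702106-66702235, plus strand: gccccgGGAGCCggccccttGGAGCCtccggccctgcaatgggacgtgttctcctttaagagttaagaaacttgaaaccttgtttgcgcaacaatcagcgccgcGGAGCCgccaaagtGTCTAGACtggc
BAMBI, chr10:28677301-28677370, plus strand: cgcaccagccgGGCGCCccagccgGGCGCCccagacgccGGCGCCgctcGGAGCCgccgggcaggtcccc
SMAD6 had 3 matches to GGAGCC and 1 to GTCTAGAC, and BAMBI had 3 to GGCGCC and 4 to GGAGCC over its whole window of 300 bases. No match overlapped another, and GGCGCC and GTCTAGAC read the same on both strands. Among all 35116 promoter windows, 19.2% held GGCGCC, 36.0% held GGAGCC and 0.202% (71 windows) held GTCTAGAC. Of the 10 genes, 7 had a window, some more than one, and only that of SMAD6 held GTCTAGAC. SMAD7, also a feedback gene, held none of these words in the window at its annotated gene start and 2 matches to GGAGCC in another window. A match is a description of letters and was not tested as a site.

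In Cond 2, 6 of the 9 genes with enough counts for a test rose and 1 fell against Cond 1, where 10.8% of all 17747 tested genes rose and 10.1% fell (quasi-likelihood test of edgeR, adjusted p under 0.05). The 3 ligands, both inhibitory SMADs and the antagonist NOG were the genes that rose, and the receptor BMPR1A fell slightly. The median log2 fold change of the 9 genes was 0.92, against 0.00018 over all tested genes. The genes were chosen with earlier results known, so the shares here describe them and do not test whether the pathway stands out. BMP4, SMAD6 and NOG also passed the fold change threshold of 2 that defines a DEG, which 4.34% of all tested genes did. In Cond 3, 4 genes rose (BMP2, BMP4, SMAD6 and SMAD9) and 3 fell (BMP7, SMAD7 and BAMBI), against 19.5% and 18.8% of all tested genes, with a median of -0.06. BMP2 and SMAD9 were DEGs, as were 8.16% of all tested genes. In Cond 4 none of the 9 genes passed the test in edgeR, none had an unadjusted p under 0.05, and none passed in DESeq2 or limma, where 0.0282% of all tested genes (5 genes) passed in edgeR. The 3 comparisons share the libraries of Cond 1. Cond 3 was therefore also tested directly against Cond 2, and there 1 gene rose (BMP2, with 19.0% of all tested genes rising) and 6 fell (BMP4, BMP7, SMAD6, SMAD7, BAMBI and NOG, with 19.2% falling).

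**Figure D1:**
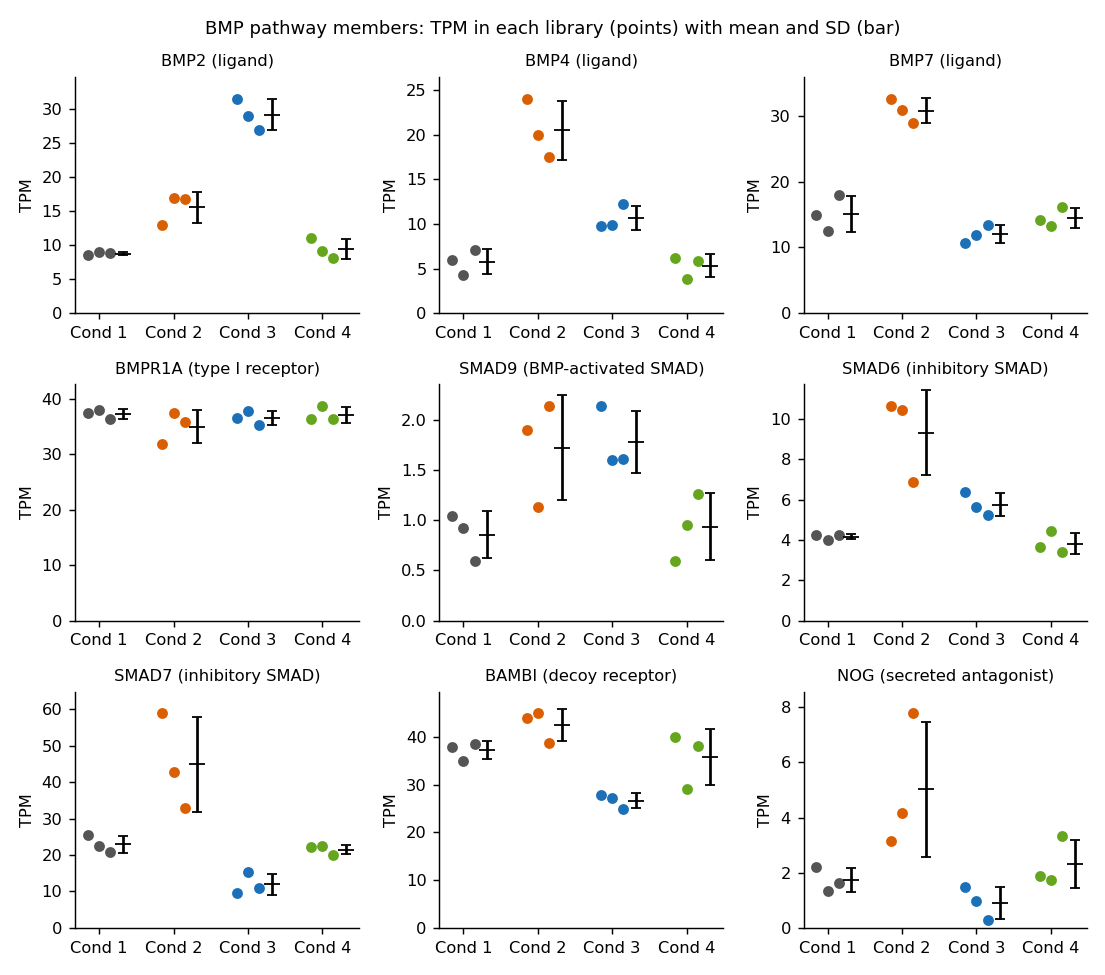
TPM of 9 genes (y axes from 0, a scale of its own per panel) in the 3 libraries of each culture condition (x axis; points, replicates 1 to 3 from left to right), with the mean and SD of each condition as a bar. BMP4, BMP7, SMAD6 and SMAD7 were highest in Cond 2, BMP2 was highest in Cond 3, and SMAD7 and BAMBI were lowest in Cond 3; GREM1 held no reads and is not drawn.

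BMP2, a ligand of the BMP2/4 subgroup, rose in both altered media and most in Cond 3. Its level was 8.55, 8.96 and 8.81 TPM in Cond 1, 12.95, 16.89 and 16.86 TPM in Cond 2, 31.54, 29.06 and 26.95 TPM in Cond 3, and 11.03, 9.18 and 8.14 TPM in Cond 4. Every library of Cond 3 lay above every library of Cond 2, and every library of Cond 2 above those of Cond 1, while Cond 4 overlapped Cond 1. The log2 fold change was 0.74 (SE 0.13, adjusted p = 0.00021) in Cond 2 and 1.71 (SE 0.13, adjusted p = 5.81e-10, a 3.26-fold change) in Cond 3. The direct test of Cond 3 against Cond 2 gave 0.97 (SE 0.12, adjusted p = 1.49e-06).

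BMP4, the other ligand of this subgroup and the one most used to differentiate pluripotent cells in culture, also rose in both media, but most in Cond 2. The 3 libraries held 5.98, 4.31 and 7.11 TPM in Cond 1, 24.03, 19.91 and 17.50 TPM in Cond 2, 9.81, 9.91 and 12.23 TPM in Cond 3, and 6.21, 3.90 and 5.91 TPM in Cond 4. Here the order of the media was the opposite of that for BMP2, with Cond 2 above Cond 3 and Cond 3 above Cond 1 in every library. Its log2 fold change was 1.73 (SE 0.20, adjusted p = 5.93e-07, a 3.31-fold change) in Cond 2 and 0.84 (SE 0.20, adjusted p = 0.00197) in Cond 3, and Cond 3 was lower than Cond 2 by a log2 fold change of -0.89 (SE 0.19, adjusted p = 0.000562). An antisense lncRNA, ENSG00000287156, shares 506 bases or 16.3% of the BMP4 exons and held 0 to 13 counts of its own. The libraries were made with a directional kit, so reads carry their strand, but the counting is not stated to use it. Whether reads of BMP4 and of this lncRNA were kept apart in the shared bases is therefore not known.

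BMP7, a ligand of the BMP5/6/7 subgroup, was the most abundant of the 3 ligands in Cond 1. It held 14.86, 12.54 and 17.90 TPM in Cond 1, 32.57, 30.82 and 28.81 TPM in Cond 2, 10.71, 11.95 and 13.41 TPM in Cond 3, and 14.14, 13.22 and 16.09 TPM in Cond 4. Cond 2 stood above all other libraries, whereas Cond 3 overlapped Cond 1. BMP7 changed by a log2 fold change of 0.93 (SE 0.12, adjusted p = 3.45e-06) in Cond 2 and of -0.36 (SE 0.13, adjusted p = 0.0247) in Cond 3, and the latter call was lost without Cond 1 replicate 3 (-0.21, adjusted p = 0.223), without Cond 3 replicate 1 (-0.28, adjusted p = 0.13), without Cond 3 replicate 2 (-0.36, adjusted p = 0.0609) and in the fits by limma on TPM. The difference of Cond 3 from Cond 2, -1.30 (SE 0.12, adjusted p = 1.72e-08), was past the fold change threshold.

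Summed over BMP2, BMP4 and BMP7, ligand transcripts came to 29.7 ± 4.01 TPM in Cond 1, 66.8 ± 3.27 TPM in Cond 2, 51.9 ± 0.851 TPM in Cond 3 and 29.3 ± 2.65 TPM in Cond 4 (SD, n = 3 libraries each). The sums of Cond 2 and of Cond 3 did not overlap those of Cond 1 (two-sided exact permutation test, p = 0.1, the smallest that 3 libraries against 3 can give). The 2 media differed in which ligand made up the sum. BMP2 was 56.3% ± 4.72 of it in Cond 3, 23.4% ± 4.26 in Cond 2 and 30.0% ± 4.40 in Cond 1 (n = 3). BMP7 made up 50.7% ± 2.18 for Cond 1, 46.0% ± 0.714 for Cond 2 and 23.2% ± 2.47 for Cond 3, while the share of BMP4 was largest in Cond 2, with 30.6% ± 3.56 against 19.4% ± 2.33 for Cond 1 and 20.5% ± 2.39 for Cond 3. In Cond 1, Cond 2 and Cond 4 BMP7 was thus the leading ligand in each library, and in Cond 3 it was BMP2.

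**Figure D2:**
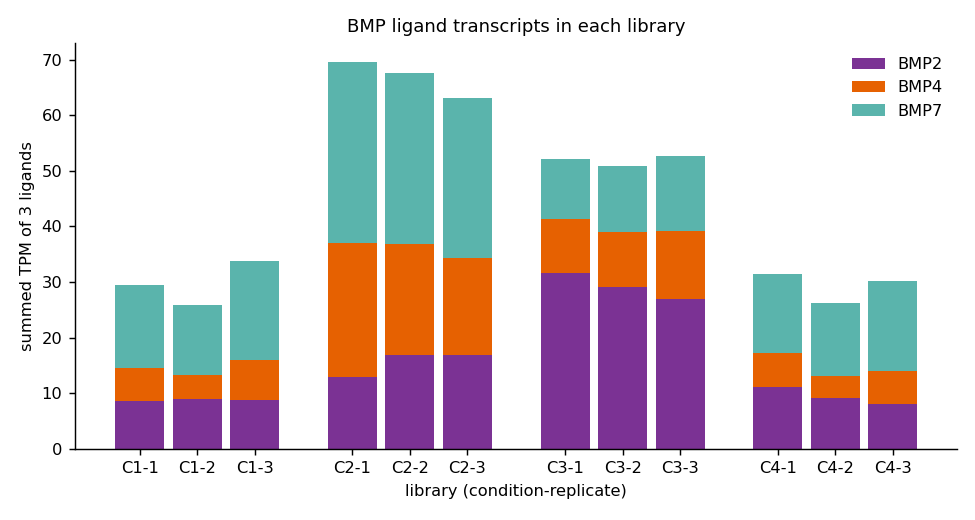
Stacked bars of the TPM of BMP2, BMP4 and BMP7 (y axis, summed TPM from 0) in each of the 12 libraries (x axis, condition and replicate). The bars of Cond 2 reach 63.2 to 69.6 TPM and those of Cond 3 50.9 to 52.6 TPM, against 25.8 to 33.8 TPM in Cond 1, and BMP2 is the largest segment of each bar in Cond 3 and of no other bar.

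BMPR1A, the type I receptor kinase for BMP2 and BMP4, was the gene whose level varied least. Its lowest library was at 31.80 TPM (Cond 2 replicate 1) and its highest at 38.77 TPM (Cond 4 replicate 2), and all 4 conditions overlapped. In Cond 2 its log2 fold change was -0.18 (SE 0.06, adjusted p = 0.0344), and this call was lost without any of the 3 libraries of Cond 1 (adjusted p = 0.0792, 0.0861 and 0.0658), without Cond 2 replicate 1 (-0.13, adjusted p = 0.152), without Cond 2 replicate 3 (-0.19, adjusted p = 0.0554), without the filter on low counts (adjusted p = 0.0616), with 6 libraries alone (adjusted p = 0.0665) and in the fits by limma. In Cond 3 the value was -0.06 with a 95% interval from -0.18 to 0.07 (adjusted p = 0.498).

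SMAD9, the least abundant of the SMADs that BMP receptors activate, was near 1 TPM. It held 33, 25 and 20 counts in Cond 1, 55, 37 and 59 in Cond 2, 75, 50 and 49 in Cond 3, and 16, 28 and 39 in Cond 4. All libraries of Cond 2 and Cond 3 were above those of Cond 1 in TPM, but at these counts the error of each was large. The log2 fold change of 1.04 (SE 0.34, adjusted p = 0.0192) in Cond 3 passed the test, but not without Cond 1 replicate 3 (0.83, adjusted p = 0.093) or Cond 3 replicate 1 (0.89, adjusted p = 0.0851), nor in limma over all genes (adjusted p = 0.0547 and 0.0833 with the pseudocounts 1 and 0.1). That of 0.92 (SE 0.34, adjusted p = 0.0593) in Cond 2 did not pass, and did so without Cond 2 replicate 2 (1.16, adjusted p = 0.0261). Cond 3 and Cond 2 differed by 0.11, with a 95% interval from -0.56 to 0.78.

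SMAD6 and SMAD7, the inhibitory SMADs, took different courses in Cond 3. SMAD6, which mainly blocks BMP signals, held 4.24, 4.01 and 4.25 TPM in Cond 1, 10.64, 10.42 and 6.89 TPM in Cond 2, 6.39, 5.61 and 5.24 TPM in Cond 3, and 3.63, 4.42 and 3.39 TPM in Cond 4. SMAD7, which blocks both BMP and TGF-beta/activin signals, held 25.43, 22.52 and 20.85 TPM in Cond 1, 58.94, 42.65 and 33.03 TPM in Cond 2, 9.57, 15.24 and 11.08 TPM in Cond 3, and 22.13, 22.37 and 20.02 TPM in Cond 4. Both were above Cond 1 in every library of Cond 2, while in Cond 3 SMAD6 was above and SMAD7 below Cond 1 in every library.

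SMAD6 changed by a log2 fold change of 1.08 (SE 0.15, adjusted p = 1.47e-05, 2.11-fold) in Cond 2 and 0.44 (SE 0.16, adjusted p = 0.0315) in Cond 3. The call in Cond 3 was lost without any of the 3 libraries of Cond 1 (adjusted p = 0.0717, 0.086 and 0.0593), without Cond 3 replicate 1 (0.36, adjusted p = 0.133), without Cond 3 replicate 2 (0.45, adjusted p = 0.0575) and in limma. SMAD7 changed by 0.89 (SE 0.16, adjusted p = 0.000253; 0.0553 in limma on log2(TPM + 0.1)) in Cond 2 and by -0.97 (SE 0.17, adjusted p = 0.000102) in Cond 3. Set against Cond 2 directly, Cond 3 was lower by -0.64 (SE 0.15, adjusted p = 0.00161) for SMAD6 and by -1.86 (SE 0.17, adjusted p = 1.10e-08, 3.62-fold) for SMAD7. The ratio of SMAD7 to SMAD6 in TPM was 5.51 ± 0.55 in Cond 1, 4.81 ± 0.723 in Cond 2, 2.11 ± 0.609 in Cond 3 and 5.69 ± 0.547 in Cond 4 (SD, n = 3), and Cond 3 did not overlap Cond 1 (two-sided exact permutation test, p = 0.1).

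BAMBI, a membrane protein that resembles a type I receptor without its kinase and acts as a decoy, fell in Cond 3. Its level was 37.93, 35.06 and 38.61 TPM in Cond 1, 43.94, 45.02 and 38.72 TPM in Cond 2, 27.93, 27.15 and 24.84 TPM in Cond 3, and 40.11, 29.05 and 38.12 TPM in Cond 4. The libraries of Cond 3 lay below all 9 others. Its log2 fold change was 0.11 (SE 0.11, adjusted p = 0.573) in Cond 2, -0.51 (SE 0.12, adjusted p = 0.00137) in Cond 3, and -0.62 (SE 0.12, adjusted p = 0.000198) for Cond 3 against Cond 2. The call in Cond 3 was lost in limma on log2(TPM + 0.1) alone (adjusted p = 0.0523).

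NOG, the gene of noggin, which binds BMP ligands outside the cell, was expressed from a single exon at low level. It held 23, 12 and 18 counts in Cond 1, 30, 45 and 71 in Cond 2, 17, 10 and 3 in Cond 3, and 17, 17 and 34 in Cond 4. In TPM the libraries of Cond 2 were at 3.14, 4.16 and 7.79 and those of Cond 1 at 2.21, 1.34 and 1.62. In Cond 2 its log2 fold change was 1.44 (SE 0.45, adjusted p = 0.0258), a call lost without Cond 2 replicate 3 (0.99, adjusted p = 0.187), Cond 1 replicate 2 (1.29, adjusted p = 0.0874) or Cond 1 replicate 3 (1.40, adjusted p = 0.0754), and in limma over all genes (adjusted p = 0.0754 and 0.191 with the pseudocounts 1 and 0.1). In Cond 3 it was -0.93 (SE 0.51, adjusted p = 0.167), and the difference of Cond 3 from Cond 2 was -2.36 (SE 0.48, adjusted p = 0.000463). GREM1, the gene of the antagonist gremlin, held 0 counts in all 12 libraries, which allows up to 3 counts or 0.0331 to 0.0430 TPM per library from counting error alone.

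**Figure D3:**
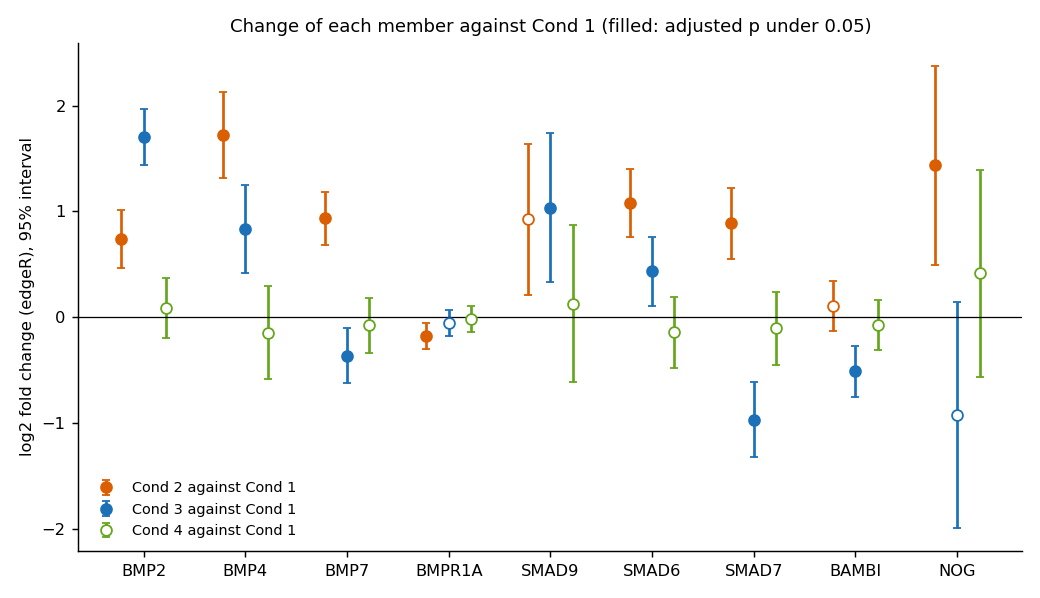
Log2 fold change against Cond 1 (y axis, edgeR estimate with its 95% interval) of 9 genes (x axis) in Cond 2, Cond 3 and Cond 4, filled where the adjusted p was under 0.05. Every interval of Cond 4 crosses 0, and BMP7 and SMAD7 lie above 0 in Cond 2 and below 0 in Cond 3.

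In Cond 4 the log2 fold changes ran from -0.14 (BMP4 and SMAD6) to 0.42 (NOG, SE 0.47). The 95% intervals set how far a change could have gone unseen in these libraries. They spanned -0.14 to 0.10 for BMPR1A, -0.19 to 0.37 for BMP2, -0.58 to 0.30 for BMP4 and -0.45 to 0.24 for SMAD7, whereas for NOG, with its low counts, they reached from -0.56 to 1.39.

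Of 66 further genes of the pathway, in 6 lists by role, 51 had enough counts for a test. These lists too were chosen with earlier results of these data known. In Cond 2, 15 of them rose and 2 fell (median log2 fold change 0.15), in Cond 3, 19 rose and 8 fell (median 0.21), and in Cond 4 none passed in edgeR, DESeq2 or limma, with 8 at an unadjusted p under 0.05, as had 1102 of all 17747 tested genes. Against Cond 2, 11 rose and 17 fell in Cond 3. The background shares are those given above for each direction.

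Among the 12 other ligands, 5 were tested and none passed against Cond 1. BMP6, a close relative of BMP7, was at 3.42 to 5.33 TPM in Cond 1, and its log2 fold change was -0.03 in Cond 2 and 0.45 (SE 0.21, adjusted p = 0.102) in Cond 3. Against Cond 2, GDF3 (1.82) and BMP8B (1.41) were higher in Cond 3. Among the 10 other receptors and co-receptors, all tested, RGMA, a co-receptor that strengthens BMP signals, rose in Cond 2 (0.75) and in Cond 3 (0.50), and the activin and BMP type II receptor ACVR2B rose in Cond 2 (0.26). In Cond 3 the endothelial-type receptors ACVRL1 (1.83, 39 to 58 counts) and ENG (0.48) rose, and the co-receptor RGMB (-0.72) and the type II receptor BMPR2 (-0.51) fell. The partners of SMAD9 moved little, with SMAD4 at 0.32 and SMAD5 at 0.26 in Cond 2, both past the test, and none of the 3 past it in Cond 3.

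Of the other secreted antagonists and binding proteins, 12 of 15 were tested. FST, the gene of follistatin, which binds activins and some BMPs, rose from 65.63, 62.74 and 71.50 TPM in Cond 1 to 198.0, 168.1 and 187.0 TPM in Cond 2 (log2 fold change 1.38, SE 0.10, adjusted p = 2.85e-10) and 143.9, 107.0 and 127.4 TPM in Cond 3 (0.89, SE 0.10, adjusted p = 1.62e-07). In Cond 2 TWSG1 (0.34) also rose and FSTL1 (-0.35) fell. In Cond 3 6 rose, among them the chordin gene CHRD (1.21, 113 to 144 counts), its relatives CHRDL1 (0.58) and CHRDL2 (1.69, 16 to 26 counts), NBL1 (1.16) and SOST (1.33), and CRIM1 (-0.65) and FSTL1 (-0.18) fell. NOG thus differed in direction of its estimate from CHRD in Cond 3, though NOG itself did not pass the test there. Among intracellular and protease modulators, 9 of 10 tested, SKIL, a co-repressor of SMADs and itself a target of TGF-beta/activin signals, fell in Cond 2 (-0.50) and in Cond 3 (-1.27). In Cond 3 BMP1, a protease that cleaves chordin, rose (1.51), as did TOB1 (0.67), LEMD3 (0.30) and the ubiquitin ligase gene SMURF1 (0.27), while the phosphatase gene PPM1A fell (-0.44).

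**Figure D4:**
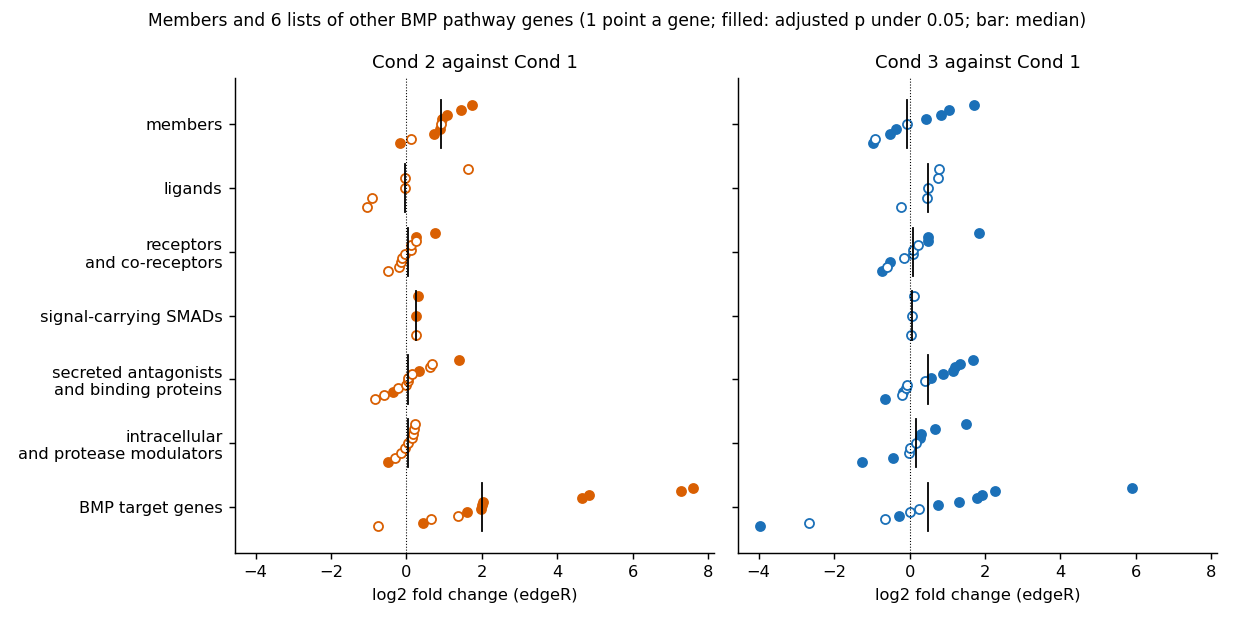
Log2 fold change against Cond 1 (x axis, edgeR estimate) of the 9 tested members and of 51 genes in 6 lists (rows), 1 point per gene, filled where the adjusted p was under 0.05, with the median of each row as a bar. The row of BMP target genes lies furthest to the right in Cond 2, with a median of 1.99, and is spread to both sides in Cond 3, with a median of 0.49.

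BMP target genes were the list with most calls in Cond 2. Of 16, 12 were tested, of which 9 rose and none fell (median log2 fold change 1.99), and in Cond 3, 6 rose and 2 fell (median 0.49). The filter on low counts spans all 4 conditions, and DLX5 and GATA3 held at most 10 counts in any library outside Cond 2. They were thus tested only through the condition where they were high. The counts and medians that involve Cond 2 partly follow from this. Against Cond 2, none rose and 7 fell in Cond 3. ID1, an inhibitor of DNA binding and a direct SMAD target, was at 794.1, 928.3 and 782.5 TPM in Cond 1, 1289, 1205 and 1072 TPM in Cond 2, and 613.9, 729.2 and 744.0 TPM in Cond 3. It rose by 0.43 (SE 0.08, adjusted p = 0.000436) in Cond 2 and fell in Cond 3 (-0.29, SE 0.08, adjusted p = 0.00712), the same directions as SMAD7. ID2 rose in both (1.60 and 1.30), as did ID4 (1.98 and 0.74), and ID3 held 0 to 8 counts per library and had too few for the test. Whether these few reads give the level of ID3 or its counting was not tested, since the handling of reads with several matches is not given in the sources used here. DLX5, a homeobox gene of the neural plate border and surface ectoderm, held 2, 0 and 0 counts in Cond 1, 232, 94 and 44 in Cond 2, and 0 in each library of Cond 3. GATA3 held 4, 3 and 8 counts in Cond 1, 208, 122 and 65 in Cond 2, and 2, 2 and 6 in Cond 3. DLX3, at 0 counts in Cond 1, held 50, 13 and 8 in Cond 2 and 22, 0 and 2 in Cond 3, where replicate 1 held nearly all of its reads. TFAP2A rose in both media (4.85 and 2.28), as did GATA2 (2.03 and 1.79), both from at most 13 counts in Cond 1. MSX2 rose in Cond 2 (2.00), from 4, 3 and 22 counts in Cond 1 to 69, 21 and 25. Its groups overlapped in TPM, with Cond 2 replicate 2 at 1.65 and Cond 1 replicate 3 at 1.69. ATOH8 rose in Cond 3 (1.91, 14 to 30 counts), and MSX1 fell in Cond 3, from 21, 6 and 23 counts in Cond 1 to 2, 0 and 1.

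The 3 libraries of Cond 2 were unequal in these genes, and the genes were looked at in this way after their values had been seen. The inequality was not confined to them. Over all genes above a count threshold, replicates 1 and 3 of Cond 2 lay furthest from their group mean among the 12 libraries. Their root mean square log2 deviations were 0.197 and 0.191, against 0.157 to 0.185 for the other libraries. Replicate 1 was the highest and replicate 3 the lowest for 4 of the 6 members that rose (BMP4, BMP7, SMAD6 and SMAD7) and for 7 of the 9 target genes that rose, against 319 of the 1911 genes that rose in Cond 2 (16.7%). NOG ran the other way, with its highest level in replicate 3, and BMP2 was lowest in replicate 1. DLX5 ran from 5.24 TPM in replicate 3 to 26.32 TPM in replicate 1. These are 3 samples with no label that sets them apart, so the values describe them and carry no test. Without replicate 3, 5 members were called in Cond 2 and 17 pathway genes, and without replicate 1, 6 and 17. All genes called in Cond 2 were 3391 of 18334 tested without replicate 3 and 3536 of 18304 without replicate 1.

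**Figure D5:**
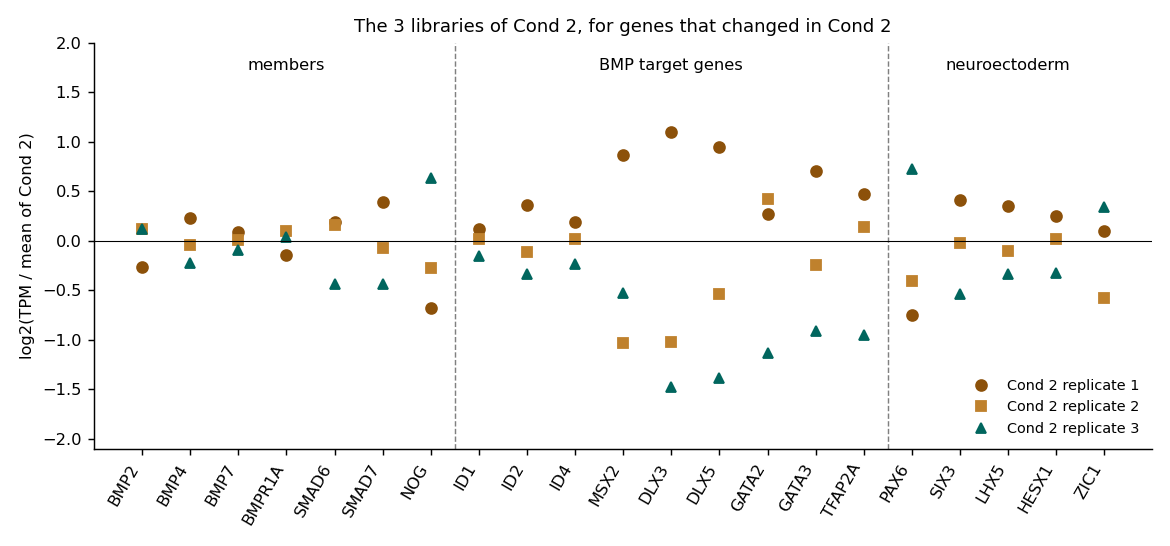
Level in each of the 3 libraries of Cond 2 relative to their mean (y axis, log2 of TPM over mean TPM), for members, BMP target genes and neuroectoderm markers that passed the test against Cond 1 (x axis). Replicate 3 lies lowest for most genes from BMP4 to TFAP2A and highest for NOG, PAX6 and ZIC1.

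Markers of other cell types were set beside these values. The 8 markers of pluripotent cells summed to 6595 to 8533 TPM over the 12 libraries, but single markers moved in both directions, with 3 up and 3 down in Cond 2 and 5 up and 2 down in Cond 3. NANOG, a core factor of pluripotency, fell in Cond 2 (log2 fold change -1.09) and in Cond 3 (-2.16), and TDGF1, a co-receptor of NODAL, fell as well (-1.50 and -0.94). The paper gives skin fibroblasts as the source of the line. Of the 6 fibroblast markers, DCN and LUM held at most 2 counts and COL3A1 1 to 30 counts. By contrast, COL1A1 held at least 7779, COL1A2 at least 2042 and PDGFRB at least 216 counts in every library. The 7 neuroectoderm markers summed to 459.7 to 749.8 TPM in Cond 2, against 21.4 to 33.2 TPM in Cond 1, 58.8 to 78.0 TPM in Cond 3 and 28.5 to 48.1 TPM in Cond 4. Nearly all of the sum in Cond 2 came from LHX5, HESX1 and SIX3, with means of 261.6, 172.0 and 157.6 TPM. The means of LHX2, ZIC1, SOX1 and PAX6 there were 2.66, 0.84, 0.26 and 0.23 TPM. In Cond 2 5 of the 6 tested passed, led by SIX3 and LHX5. LHX2 did not pass and SOX1 had too few counts for the test. ZIC1 held at most 8 counts outside Cond 2, so it was tested only through the condition where it was high. Of these 5, 3 were highest in replicate 1 and lowest in replicate 3 of Cond 2, as were 4 of the 6 members that rose. The other markers, PAX6 and ZIC1, were highest in replicate 3. In Cond 3 LHX5 (2.01) and HESX1 (0.79) rose. The 6 fibroblast markers summed to 536.5 to 573.1 TPM in Cond 3, against 290.5 to 315.3 TPM in Cond 1, almost all from the collagen genes COL1A1 and COL1A2. Over the 12 libraries the 5 amnion and trophoblast markers summed to 24.8 to 36.8 TPM, most of it from KRT7, which rose in Cond 2 (0.38) and in Cond 3 (0.45). GABRP of this list fell, from 149, 172 and 163 counts in Cond 1 to 11, 6 and 4 in Cond 2 and 68, 64 and 68 in Cond 3, and VTCN1 rose in Cond 3, with 17, 14 and 22 counts against 1, 0 and 3 in Cond 1. The 6 mesendoderm markers summed to 0.888 to 4.72 TPM, and TBXT rose in Cond 3, with 11, 20 and 18 counts against 0, 3 and 0 in Cond 1. The part of any of these marker changes in the results was not tested, and in bulk RNA fewer cells of a type and less RNA per cell cannot be told apart.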

How the data were processed

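RNA-Seq libraries of 201B7 were grouped by the treatment in their labels. Per the methods and processing notes, the authors trimmed reads with cutadapt 4.1 and fastp 0.20.1, used HISAT2 2.1.0 to align them to GRCh38, and assigned them to genes by featureCounts. Raw read counts per gene were deposited by the authors, together with TPM values, which are those counts per gene length scaled to a fixed total (largest relative deviation on recomputing 1.79e-14). The strand setting and the handling of reads with several matches are not given in the sources used here. Of 58580 lines in the count table, 5 held no whole gene row and were left out.

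Counts were normalized by TMM, filtered by filterByExpr and fitted with edgeR 4.0.16 (R 4.3.3; quasi-likelihood) over the 4 conditions together and without a replicate block, with Benjamini-Hochberg adjustment over 17747 genes. Genes changed at an adjusted p under 0.05, and DEGs also had a fold change above 2. Alternatives were upper-quartile normalization, DESeq2 1.42.0, omission of the filter, limma 3.58.1 on log2(TPM + 1) or log2(TPM + 0.1), which is the tool the study used, 6 libraries alone, a replicate block, and leaving out each library. Levels are in TPM, with SD over 3 libraries. Single values were compared by exact permutation tests, two-sided. The tests were also run on simulated data, the outcome of which is not given here. Depth of 16441148 to 21871503 counts left NOG and SMAD9 at under 80 counts per library.

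Members and lists were chosen with earlier results of these data known. All members were named, and of each pathway list the genes past the threshold with the largest changes, up to 6 a comparison, with ID1 to ID4 always; other genes named beside them were chosen after their values were seen. Genes with the most similar pattern were sought for BMP4, BMP2 and NOG, among 15701 genes with a mean TPM of at least 1. Motifs were searched in 300-base windows, from 250 bases before to 50 bases after the start. Coordinates and overlapping genes come from GENCODE on GRCh38.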

Additional observations from a re-analysis of the deposited data

How the results depend on the processing

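Of the member log2 fold changes under alternatives, 107 of 124 kept direction and call for Cond 2, 105 of 124 for Cond 3, and 121 of 124 for Cond 3 against Cond 2. The cause of the changes was not tested. With limma on log2(TPM + 0.1) over all genes above 0, members called fell from 7 to 4 in Cond 2 and from 7 to 3 in Cond 3, and pathway genes in Cond 2 from 17 to 7. All genes called came to 1602 of 35717 tested in Cond 2 (3701 of 17747 in edgeR), 3796 in Cond 3, 4056 for Cond 3 against Cond 2, and 21 in Cond 4. With limma on log2(TPM + 1), members called in Cond 3 were 4, with or without the filter at a TPM of 1, and with it 16 of 33 tested pathway genes were called in Cond 3 (27 of 51 in edgeR) and 2 genes in all in Cond 4. All genes called in Cond 4 were 5 in edgeR, 12 in DESeq2, 52 without a filter and 8 with 6 libraries alone. Upper-quartile normalization brought BMPR1A past the threshold for Cond 3 against Cond 2 (0.16, adjusted p = 0.0419).

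Leaving out 1 library at a time gave 5 to 8 members called in Cond 2, 4 to 7 in Cond 3 (4 without Cond 1 replicate 3 or without Cond 3 replicate 1), and 7 each time for Cond 3 against Cond 2. All genes called in the same fits came to 2845 to 3536 in Cond 2, 5677 to 6163 in Cond 3 and 5612 to 6427 for Cond 3 against Cond 2. In Cond 4, where nothing was called, signs turned for BMP2 (-0.033 to 0.189), BMP4 (-0.314 to 0.041), BMP7 (-0.196 to 0.075), SMAD9 (-0.147 to 0.365) and BAMBI (-0.161 to 0.054). For Cond 3 against Cond 2 the sign of SMAD9 turned (-0.13 to 0.28).

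With a replicate block, 7 members were called in Cond 2, 7 in Cond 3 and 7 for Cond 3 against Cond 2, 0 in Cond 4, and 17 and 25 pathway genes in Cond 2 and Cond 3. All genes called in Cond 2 with the block were 3750 of 17747. The labels do not tie numbers to plates or runs. Over 18 same-numbered pairs the correlation of deviations from the group means was -0.04 to 0.09, with 0 pairs over 0.1. Its median was 0.028 for these pairs, against -0.013 for pairs with other numbers. The nearest library of another condition carried the same number for 8 of 12 libraries. With 3 numbers, that is more than unrelated numbers would give on average, and this count was not tested. Low counts limit NOG and SMAD9, at 3 to 75 counts per library, and left GREM1, at 0, without a test.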

Other observations

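The genes whose pattern over the 12 libraries was most like that of a member were sought by the root mean square difference of log2 CPM, each gene centred on its own mean, and are a description over libraries that share conditions and depth. For BMP4 they were FLNC (0.25), CAPN6 (0.26) and THRB (0.26). FLNC, the gene of filamin C, was at 24.0 TPM in Cond 1, 109.2 TPM in Cond 2, 55.9 TPM in Cond 3 and 26.5 TPM in Cond 4 (means), with Cond 2 highest and Cond 3 next, as for BMP4.

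For BMP2 the nearest genes were C14orf132 (0.16), OLFM1 (0.17) and ASXL1 (0.18). OLFM1, the gene of the secreted protein olfactomedin 1, was at 22.3 TPM in Cond 1, 37.6 TPM in Cond 2, 64.5 TPM in Cond 3 and 23.6 TPM in Cond 4, with Cond 3 highest and Cond 2 next, as for BMP2. For NOG the nearest, ALMS1-IT1, NKAIN3-IT1 and HIST1H1E, differed by 0.47 to 0.49, further than for BMP4 and BMP2. NOG held 3 to 71 counts in these libraries.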
